A study of Mus musculus with 14 samples.

Results

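The genes described here are the 8 mouse genes for glycine receptors and glycine transport: the receptor subunits Glra1, Glra2, Glra3, Glra4 and Glrb, the receptor anchor Gphn, and the glycine transporters Slc6a5 and Slc6a9. They were chosen by symbol, and each matched 1 Ensembl ID among the 55359 gene IDs counted in every library. Bulk messenger RNA, purified with poly-T beads, was sequenced in 14 libraries from the superior colliculus of ICR/CD-1 pups at postnatal day 6. Per the labels, the agent was injected into the vitreous of the eye between postnatal days 0 and 1, and not into the colliculus that was sampled. The 4 groups were carbenoxolone (cbx, a gap junction blocker, at 50 mM) superficial layer with 4 libraries, saline superficial layer with 3, cbx deep layer with 4 and saline deep layer with 3. Carbenoxolone was given to ablate retinal waves, the spontaneous activity of the newborn retina, per the labels' protocols, and the saline pups had the same operation. Each library pooled microdissected tissue of 3 brains, and the spread behind each p-value is that between pools, which may be technical in part. The labels do not say whether libraries of the same number in both layers came from the same brains.

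Glycine receptors are chloride channels built of alpha subunits, alone or together with the beta subunit Glrb, and they are known best from fast inhibition in the spinal cord and brainstem. The beta subunit binds gephyrin, the scaffold encoded by Gphn, which also clusters GABA-A receptors and takes part in molybdenum cofactor synthesis. Receptors with the alpha subunit encoded by Glra2 prevail in the immature rodent nervous system, and Glra1 replaces it in many regions as the animal matures. Slc6a5 encodes the transporter that marks glycine-releasing neurons, and Slc6a9 the one found mainly on glia, which keeps extracellular glycine low.

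Libraries held 32004952 to 48776827 counts. Markers of colliculus and midbrain were detected: of 8 such transcription factor genes, Rorb, Lhx1, Sox14 and Gata3 were higher and Tfap2b, Tfap2d, Pou4f1 and Pou4f2 lower in superficial than in deep libraries, after cbx and after saline (edgeR). Summed CPM (read counts scaled to library size) of 7 meningeal genes were 614 to 1150.1 in cbx superficial, 471 to 698 in saline superficial, 39.1 to 53.7 in cbx deep and 60.1 to 68.7 in saline deep libraries. In the same order, 7 neuronal genes summed to 4114 to 4277, 4279 to 4515, 4494 to 4884, and 4806 to 5078 CPM. The pools also differed in sex-linked genes: Xist was at 0.572 and 1.94 CPM in both libraries of saline pool 1 and at 187 CPM or more elsewhere, and Ddx3y had no counts in both libraries of cbx pool 4. In the other pools Ddx3y was at 30.5 to 45.3 CPM in saline and 16.0 to 38.6 CPM in cbx libraries. Sex was not a term in the fits. Glra2 and Glra4 lie on the X chromosome. Member results whose sign or call changes without saline pool 1 and cbx pool 4 are named as such. Bulk RNA cannot tell fewer cells of a type from less RNA per cell.

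The first question is how much of each transcript the colliculus held at this age. Transcripts of Glrb, Gphn, Slc6a9 and Glra2 were abundant, those of Glra3 intermediate, and those of Glra1, Glra4 and Slc6a5 scarce in all 4 groups. Divided by the length of the longest annotated transcript, Glrb averaged 33.2 ± 3.2 CPM per kilobase in cbx superficial and 32.8 ± 2.7 in saline superficial libraries (SD, n = 4 and 3). It averaged 46.9 ± 3.1 in cbx deep and 45.7 ± 1.6 CPM per kilobase in saline deep libraries (SD, n = 4 and 3). Glrb therefore headed the order of levels on this scale in each group. Gphn followed with group means of 25.4 to 29.7 CPM per kilobase, then Slc6a9 with 18.9 to 24.5 and Glra2 with 16.9 to 17.9.

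Slc6a9 and Glra2 overlapped in cbx superficial libraries, at 15.2 to 22.7 and 15.3 to 18.9 CPM per kilobase, and in saline superficial libraries too, so their order in the superficial layer was within the spread. The order of the most abundant members also depended on the length used. Divided by all merged exons of a gene, Gphn stood above Glrb in the cbx and saline superficial groups, with means of 24.2 and 24.9 against 21.6 and 21.3 CPM per kilobase, and their ranges overlapped in the cbx group. On that scale Glra2 stood above Slc6a9 in all 4 groups, with means of 16.9 to 17.9 CPM per kilobase for Glra2 and 12.8 to 16.6 for Slc6a9, and their ranges overlapped in cbx superficial and saline deep libraries.

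Far below these, Glra3 averaged 2.54 and 2.38 CPM per kilobase of longest transcript in cbx and saline superficial libraries, and 5.56 and 4.65 in cbx and saline deep libraries. Glra1 had group means of 0.486 to 1.24 CPM per kilobase. Glra4 and Slc6a5 were lowest, with group means of 0.0302 to 0.179 and 0.0377 to 0.101 CPM per kilobase. In reads, Slc6a5 had 6 to 30 counts and Glra4 0 to 17 counts per library. Their ranges per kilobase overlapped in each group, so no order between them is given, and Glra1 overlapped Glra4 in cbx superficial libraries.

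**Figure D1:**
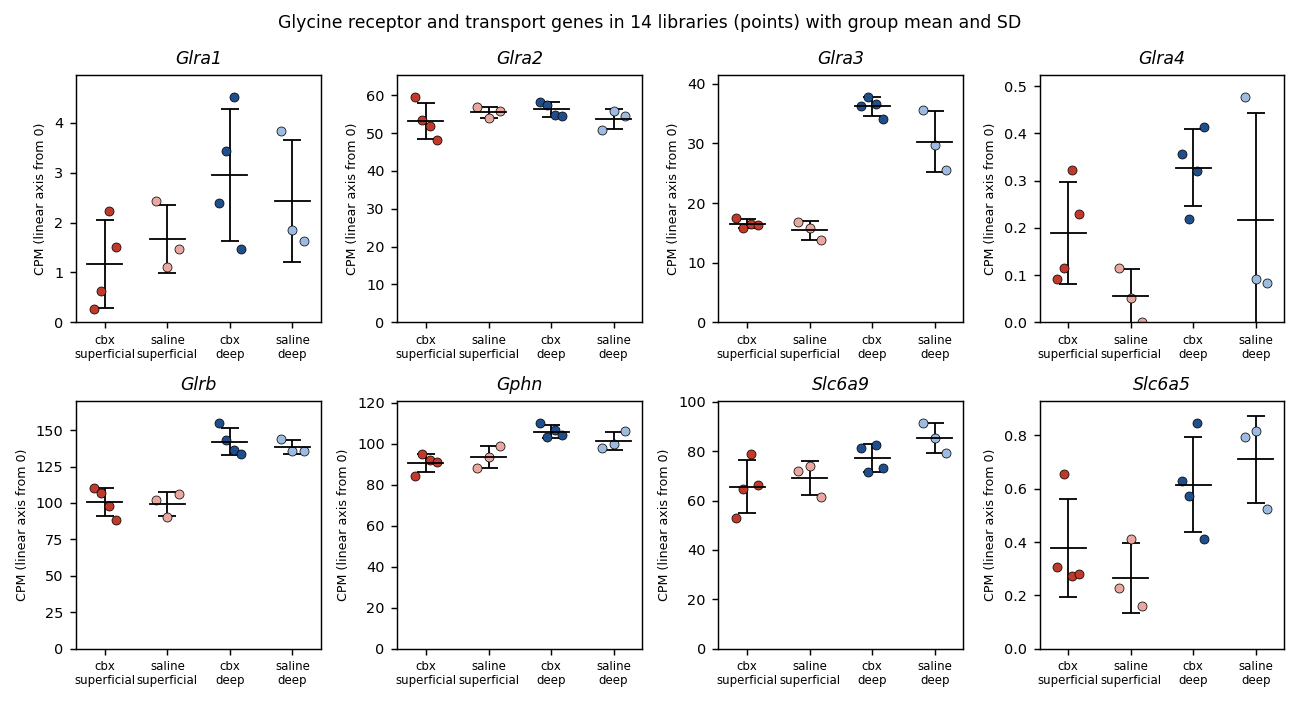
Level of each gene in CPM on linear axes that start at 0; each point is 1 library, the horizontal line is the group mean and the bar the SD (cut at 0 for Glra4). Glra3 and Glrb lie lower in the superficial groups than in the deep groups with no overlap, while Glra2 lies between 48.2 and 59.5 CPM in all 14 libraries.

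The alpha subunits were next set against each other within each library, with counts divided by transcript length. Glra2 made up most alpha subunit transcripts everywhere, Glra3 was second, and Glra1, the subunit of the mature receptor, was a few percent. Glra2 held 86.9%, 86.0%, 81.9% and 82.5% of the alpha sum in cbx superficial libraries and 83.1%, 85.5% and 86.7% in saline superficial libraries. It held 73.2%, 71.2%, 69.3% and 74.0% in cbx deep libraries and 68.7%, 76.7% and 78.8% in saline deep libraries. The superficial libraries were thus all above the deep libraries of the same treatment. The shares depended on the length used. With merged exons Glra2 held 85.2% to 90.2% in superficial and 73.9% to 83.2% in deep libraries. Without division by length it held 72.8% to 78.6% and 56.0% to 66.7%. The layers stayed apart on both scales.

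Glra3 took up most of the difference in shares. It held 12.7% ± 0.52 in cbx superficial, 11.4% ± 0.97 in saline superficial, 22.4% ± 0.25 in cbx deep and 20.3% ± 2.8 in saline deep libraries (SD, n = 4, 3, 4 and 3). Glra1 held 0.528% to 4.65% in cbx superficial, 2.31% to 4.68% in saline superficial, 2.64% to 7.54% in cbx deep and 3.10% to 6.86% in saline deep libraries. Glra4, which in humans is regarded as a pseudogene, reached at most 1.11% in any library.

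The share of Glra2 in superficial minus that in deep libraries was 12.4 percentage points after cbx (exact two-sided permutation test p = 0.0286, the smallest that 4 against 4 allows; adjusted over 4 contrasts p = 0.114). After saline the difference was 10.3 points (exact permutation p = 0.1, the smallest that 3 against 3 allows; adjusted p = 0.2). Between cbx and saline it differed by -0.753 points in the superficial layer (exact permutation p = 0.686, adjusted p = 0.686) and by -2.80 points in the deep layer (exact permutation p = 0.343, adjusted p = 0.457). Both layer contrasts were at the smallest p their sizes allow, and an exact permutation test of 4 against 3 libraries cannot go below p = 0.0571. Even with every p at its smallest, no adjusted p over these 4 contrasts could fall under 0.05. The adjusted threshold was thus out of reach, and no conclusion is drawn from its not being passed. The layer tests treated all libraries as independent and did not keep the pairs of same-numbered libraries. No paired test of the shares is given. The shares of Glra2 and Glra3 are bound together, since all 4 sum to the whole.

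**Figure D2:**
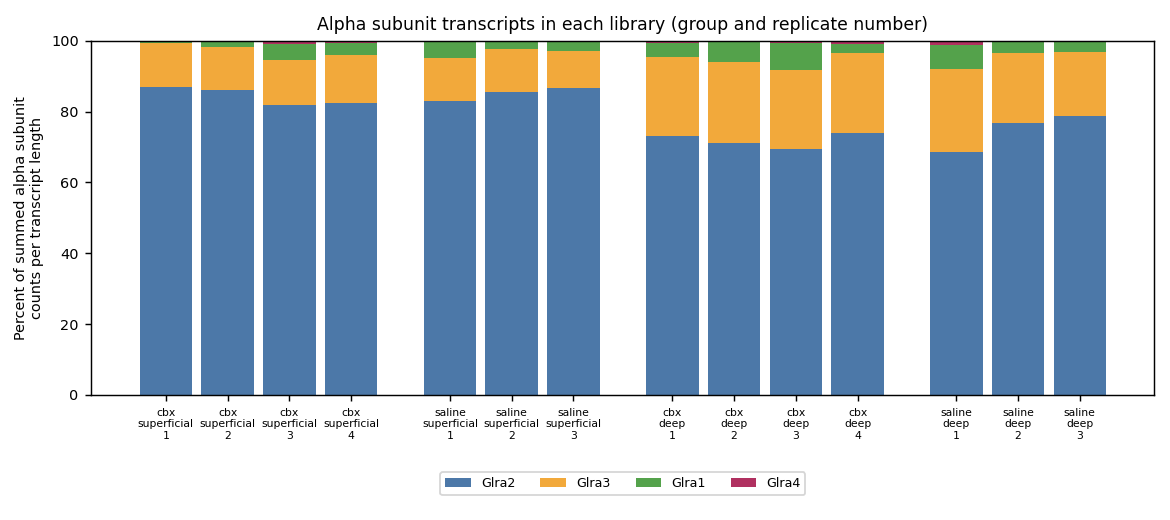
Each bar is 1 library, named by group and replicate number, and the colours give the percent of the summed alpha subunit counts per transcript length. Glra2 fills 81.9% to 86.9% of the superficial bars and 68.7% to 78.8% of the deep bars, with Glra3 making up most of the rest.

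Glrb was also set against the alpha subunits, since the beta subunit is the one that is anchored. Per transcript length, the ratio of Glrb to the summed alpha subunits was 1.66 ± 0.098 in cbx superficial and 1.58 ± 0.12 in saline superficial libraries (SD, n = 4 and 3). It was 1.89 ± 0.094 in cbx deep and 2.00 ± 0.056 in saline deep libraries (SD, n = 4 and 3). The superficial libraries lay below the deep ones in both treatments, narrowly after cbx, where the highest superficial ratio was 1.79 and the lowest deep ratio 1.80. With merged exon lengths the group means were 1.12, 1.07, 1.32 and 1.39 in the same order, so the size of the ratio rests on the annotation.

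The second question is how the layers differ. Glra3 and Glrb were lower in the superficial layer after either treatment, and Gphn after cbx, while Glra2 was not called in either. Of the 8 members, 3 were called after cbx and 2 after saline, all of them lower in the superficial layer, with edgeR's quasi-likelihood test and an adjusted p under 0.05. The groups of 3 members after cbx and of 4 after saline did not overlap, beside 29.6% and 36.7% of all genes. Over all 20330 tested genes 32.2% were called after cbx, 14.1% as lower, and 18.4% after saline, 8.73% as lower. Removal of length and GC trends moved the split of all calls after saline to 1599 higher and 2460 lower genes, against 1965 and 1774. The members' median log2 difference was -0.60 after cbx and -0.51 after saline, beside medians of 0.018 and 0.042 over all genes. Both member medians include the scarce Glra1, Glra4 and Slc6a5, which were not called and had SEs of 0.42 to 0.92. Of the more abundant members, Glra3 and Glrb lay between -1.13 and -0.48, and Gphn, Slc6a9 and Glra2 between -0.30 and 0.049.

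Glra3 encodes an alpha subunit known in rodents from the spinal dorsal horn and the retina. It had 17.5, 15.8, 16.4 and 16.2 CPM in cbx superficial libraries, against 36.4, 37.8, 36.6 and 34.1 CPM in cbx deep libraries. In saline pups, Glra3 had 16.9, 15.8 and 13.7 CPM in superficial libraries, against 35.6, 29.7 and 25.5 CPM in deep libraries. Every superficial library thus lay below every deep library. The log2 difference was -1.13 (SE 0.093, edgeR adjusted p = 1.38e-08) after cbx, a level 0.456-fold that of the deep layer, and -0.97 (SE 0.11, edgeR adjusted p = 1.76e-06) after saline, 0.511-fold. In same-numbered libraries Glra3 was lower in the superficial layer in 7 of 7 pools, by -1.26 to -0.89 on the log2 scale.

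Glrb had 110.0, 107, 97.7 and 88.2 CPM in cbx superficial libraries, against 155, 143, 137 and 134 CPM in cbx deep libraries. In saline pups, Glrb had 102, 90.2 and 106 CPM in superficial libraries, against 144, 136 and 136 CPM in deep libraries. Here too the layers did not overlap. Glrb thus differed by -0.50 log2 (SE 0.073, edgeR adjusted p = 2.68e-05) after cbx and -0.48 (SE 0.085, edgeR adjusted p = 0.000375) after saline, with 7 of 7 pools lower. The fall of Glrb was thus smaller than that of Glra3 by its point estimate, and the difference between both genes was not tested.

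Gphn had 84.2, 94.8, 91.9 and 91.2 CPM in cbx superficial libraries, against 110.0, 103, 107 and 104 CPM in cbx deep libraries. In saline pups, Gphn had 88.3, 93.5 and 98.8 CPM in superficial libraries, against 97.8, 99.7 and 106 CPM in deep libraries. The layers were apart after cbx and overlapped after saline. Gphn differed by -0.23 log2 (SE 0.057, edgeR adjusted p = 0.00473) after cbx and -0.11 (SE 0.066, edgeR adjusted p = 0.278) after saline. The change of the layer difference with treatment was -0.11 (SE 0.088, edgeR adjusted p = 0.756), so Gphn is not shown to differ between treatments.

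Called markers of neurons went both ways. Of 7 pan-neuronal genes, 4 were lower and 1 higher in the superficial layer after cbx, with a median of -0.21, and 1 was lower and 1 higher after saline, with a median of -0.14. The neurofilament gene Nefl was at -1.52 (SE 0.090) after cbx and -1.23 (SE 0.10) after saline, and the synaptotagmin gene Syt1 at 0.57 (SE 0.066) and 0.66 (SE 0.076). Of 7 oligodendrocyte lineage genes, 6 were lower after cbx and 5 after saline, with medians of -0.68 and -0.65. Of 7 microglial genes, 3 were lower and 1 higher after cbx, with sums of 232 to 248 CPM in superficial and 264 to 296 CPM in deep libraries. After saline 6 microglial genes were lower and 0 higher, with 169 to 192 CPM in superficial and 282 to 306 CPM in deep libraries. Of 7 genes known from the cerebellum, 6 were tested, and 4 were higher after cbx and 5 after saline. They summed to 197 to 225 CPM in cbx superficial, 193 to 228 in saline superficial, 84.8 to 106 in cbx deep and 94.4 to 108 CPM in saline deep libraries, with Atoh1 at 0 counts in all 14. Barhl1 made up most of the superficial sums, with means of 135 CPM after cbx and 124 CPM after saline. Pcp2 averaged 4.24 and 5.17 CPM there, and Neurod1 0.655 and 0.418 CPM. These genes are not confined to the cerebellum, and whether cerebellar or collicular cells expressed them was not tested. Of 5 blood genes, 4 were higher after cbx and 0 after saline. The part of these cell types, and of the meningeal genes above, in the layer differences of Glra3, Glrb and Gphn was not tested.

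Promoter windows are shown for the members called between layers, Glra3, Glrb and Gphn, and for Glra2, which was not. They come from RefSeq on GRCm38.p6, run from 250 bases before to 50 bases after a transcription start, and are written 5′ to 3′ on the gene's strand. Capitals mark GC boxes, the letters GGGCGG or their complement CCGCCC, which the factor Sp1 is known to bind. The windows are chr8:55940168-55940467 on the plus strand for Glra3, chr3:80913611-80913910 on the minus strand for Glrb, chr12:78226405-78226704 on the plus strand for Gphn and chrX:165327344-165327643 on the minus strand for Glra2.
Glra3: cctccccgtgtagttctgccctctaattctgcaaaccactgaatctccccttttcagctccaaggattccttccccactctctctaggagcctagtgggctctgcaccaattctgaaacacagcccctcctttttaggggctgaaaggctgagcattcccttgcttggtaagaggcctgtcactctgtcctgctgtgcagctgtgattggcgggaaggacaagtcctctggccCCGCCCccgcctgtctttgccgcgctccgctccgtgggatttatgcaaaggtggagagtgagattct
Glrb: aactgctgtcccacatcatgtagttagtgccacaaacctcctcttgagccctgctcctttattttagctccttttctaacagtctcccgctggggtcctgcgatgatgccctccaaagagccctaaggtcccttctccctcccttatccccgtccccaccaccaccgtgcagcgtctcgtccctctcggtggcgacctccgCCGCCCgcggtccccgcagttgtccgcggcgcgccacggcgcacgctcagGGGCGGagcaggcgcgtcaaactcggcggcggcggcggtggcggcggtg
Gphn: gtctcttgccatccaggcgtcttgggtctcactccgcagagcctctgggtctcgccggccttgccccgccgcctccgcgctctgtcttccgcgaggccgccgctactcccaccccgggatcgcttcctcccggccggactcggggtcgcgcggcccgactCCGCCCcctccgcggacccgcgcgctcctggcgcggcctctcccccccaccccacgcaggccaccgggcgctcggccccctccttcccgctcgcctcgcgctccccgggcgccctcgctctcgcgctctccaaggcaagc
Glra2: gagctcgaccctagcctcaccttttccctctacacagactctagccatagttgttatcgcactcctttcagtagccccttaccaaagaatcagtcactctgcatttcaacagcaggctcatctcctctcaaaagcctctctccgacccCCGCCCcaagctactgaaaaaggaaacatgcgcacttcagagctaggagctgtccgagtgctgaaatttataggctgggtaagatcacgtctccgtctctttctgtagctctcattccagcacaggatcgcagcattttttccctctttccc

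Glrb's window held 2 GC boxes and those of Glra3, Gphn and Glra2 held 1 each, on either strand. Of all 32851 RefSeq promoter windows of that length, 35.7% held at least 1. The letters TATAAA, the TATA box, were found on either strand in the window of Glra2 and in none of the other 3, against 13.6% of all windows. The windows differed in base composition, with 77% G and C and 42 CG pairs in Gphn, 65.7% and 30 in Glrb, 56% and 8 in Glra3, and 50.3% and 9 in Glra2, beside a median of 52.7% G and C over all windows. These matches describe the letters of the windows only. Of the 8 members, 7 had an entry, with 10 windows in all, and Glra1 had none.

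Glra2 had 59.5, 53.4, 51.9 and 48.2 CPM in cbx superficial libraries, against 58.4, 57.4, 54.8 and 54.5 CPM in cbx deep libraries. After saline it had 56.9, 53.997 and 55.9 CPM in superficial libraries, against 50.8, 55.9 and 54.5 CPM in deep libraries. The layers overlapped in both treatments. The log2 difference was -0.080 after cbx (95% interval -0.22 to 0.057, edgeR adjusted p = 0.384) and 0.049 after saline (95% interval -0.11 to 0.21, edgeR adjusted p = 0.739). The value after saline was -0.0063 without saline pool 1 and cbx pool 4 and -0.065 with length and GC trends removed.

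Glra1 encodes the subunit of the mature spinal receptor, whose loss causes startle disease. It had 0.275, 0.626, 2.24 and 1.51 CPM in cbx superficial libraries, against 2.39, 3.44, 4.52 and 1.47 CPM in cbx deep libraries. In saline pups, Glra1 had 2.43, 1.11 and 1.47 CPM in superficial libraries, against 3.85, 1.84 and 1.63 CPM in deep libraries. Libraries of 1 group thus differed several-fold, and the layers overlapped. Glra1 differed by -1.32 log2 (SE 0.53, edgeR adjusted p = 0.0771) after cbx and -0.54 (SE 0.61, edgeR adjusted p = 0.624) after saline. With 1 library left out, the value after saline lay between -0.91, without saline superficial replicate 1, and -0.057, without saline deep replicate 1.

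With the pool as a block, Glra1 passed after cbx at -1.46 (SE 0.39, edgeR adjusted p = 0.0113). The log2 differences of cbx pools 1 to 4 were -2.89, -2.36, -0.998 and 0.033, so pool 4 was not lower in the superficial layer. Over both treatments Glra1 was lower in the superficial library in 6 of 7 pools. It also passed after cbx without cbx superficial replicate 3 (edgeR adjusted p = 0.0202), without cbx deep replicate 4 (0.0456) or without saline pool 1 and cbx pool 4 (0.0468). Hox genes of the hindbrain and cord, where Glra1 is abundant, were near 0: 8 Hox genes summed to 0.0853 to 0.305 CPM in cbx superficial, 0.171 to 0.284 in saline superficial, 0.0273 to 0.146 in cbx deep and 0.0302 to 0.248 CPM in saline deep libraries, with Hoxa3 and Hoxa5 at 0 counts in all 14. These Hox genes do not mark every part of the hindbrain, and the part of such tissue in the Glra1 values was not tested.

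Slc6a5 had 0.305, 0.654, 0.273 and 0.281 CPM in cbx superficial libraries, against 0.629, 0.573, 0.846 and 0.412 CPM in cbx deep libraries. After saline it had 0.228, 0.413 and 0.158 CPM in superficial libraries, against 0.795, 0.816 and 0.523 CPM in deep libraries. The layers overlapped after cbx and did not after saline. The log2 difference was -0.70 (SE 0.42, edgeR adjusted p = 0.217) after cbx and -1.40 (SE 0.50, edgeR adjusted p = 0.0576) after saline, which did not pass. It passed after saline without saline superficial replicate 2 (edgeR adjusted p = 0.0386). This marker of glycine-releasing neurons thus stayed below 1 CPM in every library.

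Slc6a9 had 52.9, 64.5, 78.9 and 66.4 CPM in cbx superficial libraries, against 81.5, 71.7, 82.6 and 73.0 CPM in cbx deep libraries. After saline it had 72.0, 74.0 and 61.3 CPM in superficial libraries, against 91.3, 85.3 and 79.2 CPM in deep libraries. The layers overlapped after cbx and not after saline. The log2 difference was -0.23 (SE 0.097, edgeR adjusted p = 0.0755) after cbx and -0.30 (SE 0.11, edgeR adjusted p = 0.0679) after saline. With the pool as a block both passed, at -0.24 (SE 0.075, edgeR adjusted p = 0.0165) after cbx and -0.31 (SE 0.086, edgeR adjusted p = 0.0149) after saline, with 7 of 7 pools lower.

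After cbx Slc6a9 also passed without cbx superficial replicate 3 (edgeR adjusted p = 0.0081) or cbx deep replicate 2 (0.0439), with DESeq2 (0.0441), without the low-count filter (0.0161), with a filter of 1 CPM in 3 libraries (0.0414) or with length and GC trends removed (0.0225). After saline it passed with DESeq2 (adjusted p = 0.0384), without the low-count filter (0.00679), with only the groups compared (0.00499) or with length and GC trends removed (0.0242). Exons of other genes overlap 38.6% of the merged exons of Slc6a9, all on the other strand, and without a stated strand setting their reads cannot be told apart. Astrocyte genes, which mark cells that express Slc6a9, had medians of 0.25 after cbx, with 4 of 8 higher and 2 lower, and 0.12 after saline, with 2 higher and 3 lower. Their sum was 2649 to 3173 CPM in cbx superficial, 2788 to 3450.2 in saline superficial, 1880 to 2161 in cbx deep and 2169 to 2658 CPM in saline deep libraries. Their part in the Slc6a9 values was not tested.

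Glra4 had 0.0915, 0.114, 0.323 and 0.230 CPM in cbx superficial libraries, against 0.356, 0.218, 0.321 and 0.412 CPM in cbx deep libraries. After saline it had 0.114, 0.0516 and 0 CPM in superficial libraries, against 0.477, 0.0906 and 0.0826 CPM in deep libraries. The library at 0 allows up to 0.0790 CPM at 3 counts, for counting error only. Glra4 differed by -0.75 log2 (SE 0.65, edgeR adjusted p = 0.41) after cbx and -1.91 (SE 0.92, edgeR adjusted p = 0.175) after saline. With 1 library left out, the value after saline lay between -2.88, without saline superficial replicate 1, and -0.64, without saline deep replicate 1. After cbx it lay between -1.13, without cbx superficial replicate 3, and -0.54, without cbx superficial replicate 1. All 8 members passed the filter on low counts, Glra4 through the few libraries where it was highest. Most of these were deep. Its counts were 17, 15 and 14 in cbx deep 1, saline deep 1 and cbx deep 4. Next were 13 in cbx superficial 3 and 11 in cbx deep 3. The Glra4 values are therefore given as a description, and no conclusion on the layers is drawn from its p-values.

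**Figure D3:**
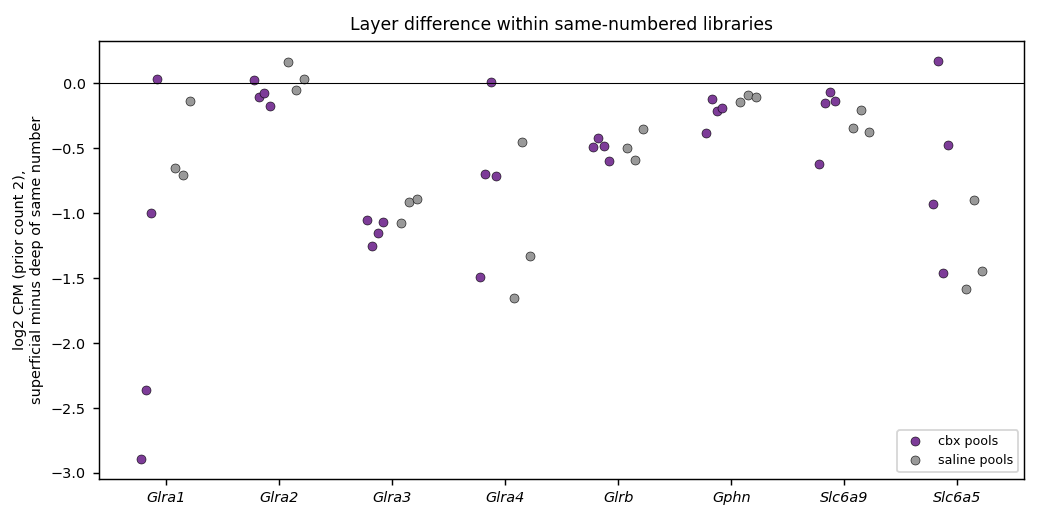
Each point is 1 pool, the log2 CPM (prior count 2) of its superficial library minus that of the deep library of the same number, with cbx pools left of saline pools for each gene. Glra3, Glrb, Gphn and Slc6a9 lie below 0 in 7 of 7 pools, and Glra1 reaches from -2.89 to 0.033.

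Genes with a like pattern were sought by the mean absolute difference of centred log2 CPM over the 14 libraries among 13699 protein-coding genes of at least 1 CPM on average. Nearest to Glra3 were Elfn1 (0.092) and Dzank1 (0.11). Nearest to Glrb were Syngr3 (0.044), Pld3 (0.046) and Vstm2a (0.048), and nearest to Gphn were Ttc7b (0.036), Ubash3b (0.037) and Kifap3 (0.040). Smaller values for Glrb and Gphn go with the smaller range of these genes over the libraries.

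The third question is what cbx at the eye changed. None of the 8 members was called in either layer. In the superficial layer 0 of 8 passed with edgeR, DESeq2 (6 of them with an adjusted p) or limma-voom. Of all 20330 tested genes edgeR called 880 (4.33%), DESeq2 1585 and limma-voom 881. Of the members 0 had an unadjusted edgeR p under 0.05, beside 20.6% of all tested genes. No member's groups were apart there, beside 17.3% of all genes. In the deep layer 0 of 8 passed with edgeR, DESeq2 (again 6 with an adjusted p) or limma-voom. Of all genes edgeR called 373 (1.83%), DESeq2 901 and limma-voom 319. Of the members 1, Glra3, had an unadjusted edgeR p under 0.05, beside 15.3% of all genes. No member's groups were apart in the deep layer, beside 16.0% of all genes. The count of 0 called among 8 is near the shares of all genes that edgeR called, 4.33% and 1.83%. Removal of length and GC trends moved the split of all calls in the deep layer to 217 higher and 319 lower genes, against 215 and 158.

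The intervals show which sizes of change the libraries allow. For Glra2 the log2 difference of cbx minus saline was -0.062 in the superficial layer (95% interval -0.21 to 0.086, edgeR adjusted p = 0.668) and 0.067 in the deep layer (95% interval -0.081 to 0.22, edgeR adjusted p = 0.733). For Glrb it was 0.019 (95% interval -0.15 to 0.19, edgeR adjusted p = 0.922) and 0.038 (95% interval -0.13 to 0.20, edgeR adjusted p = 0.889). For Gphn it was -0.047 (95% interval -0.18 to 0.083, edgeR adjusted p = 0.718) and 0.066 (95% interval -0.064 to 0.20, edgeR adjusted p = 0.684). The highest of these upper bounds was 0.22 and the lowest of these lower bounds -0.21.

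Glra3 was at 36.2 ± 1.6 CPM in cbx deep and 30.3 ± 5.1 CPM in saline deep libraries (SD, n = 4 and 3). The groups overlapped through saline replicate 1, and the log2 difference was 0.26 (SE 0.098, unadjusted p = 0.0163, edgeR adjusted p = 0.196). In the superficial layer it was 16.5 ± 0.75 and 15.5 ± 1.6 CPM (SD, n = 4 cbx and 3 saline), a log2 difference of 0.094 (95% interval -0.12 to 0.31, edgeR adjusted p = 0.647). Slc6a9 was at -0.071 (95% interval -0.29 to 0.15, edgeR adjusted p = 0.747) in the superficial and -0.14 (95% interval -0.36 to 0.075, edgeR adjusted p = 0.57) in the deep layer.

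The scarce members were measured too loosely for such bounds. Glra1 was at -0.49 (95% interval -1.76 to 0.77) in the superficial and 0.28 (95% interval -0.92 to 1.48) in the deep layer. Slc6a5 was at 0.49 (95% interval -0.52 to 1.501) and -0.21 (95% interval -1.11 to 0.70), and Glra4 at 1.77 (95% interval -0.065 to 3.60) and 0.61 (95% interval -0.88 to 2.10). None of these 3 genes had an edgeR adjusted p under 0.262 here, and their intervals reached past a 2-fold change in at least 1 direction in each layer.

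**Figure D4:**
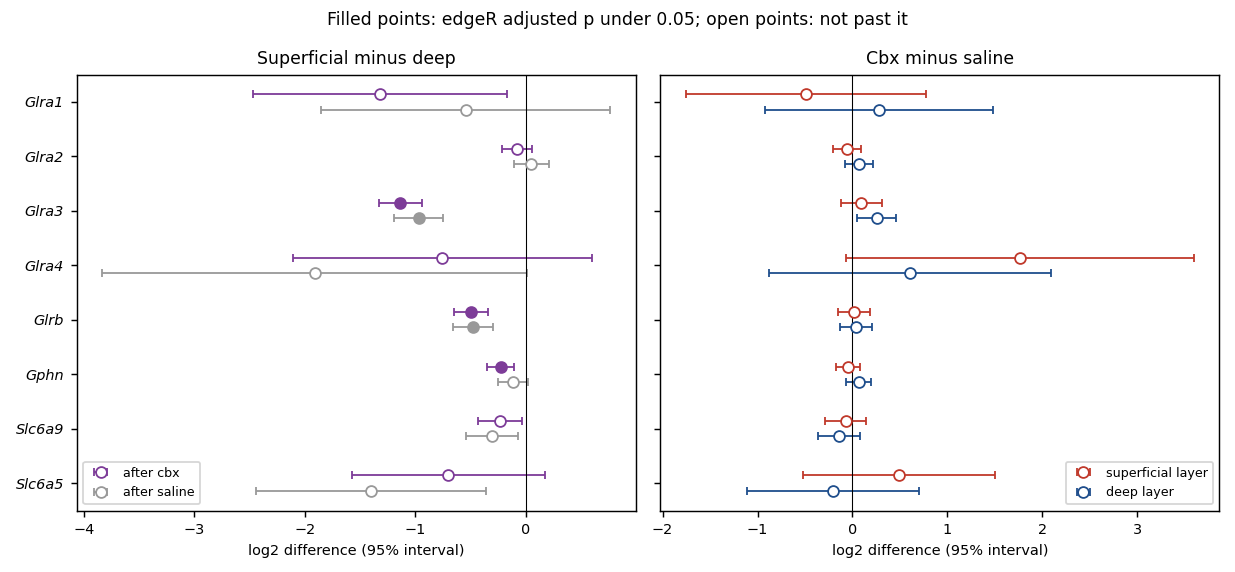
Log2 difference of each gene with its 95% interval, superficial minus deep on the left and cbx minus saline on the right; filled points passed edgeR's adjusted threshold and open points did not. Filled points stand only on the left, for Glra3 and Glrb after both treatments and for Gphn after cbx, all below 0.

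The last question is whether the cbx difference depended on the layer. None of the 8 members passed the interaction with edgeR, DESeq2 or limma-voom, and 0 had an unadjusted p under 0.05. Over all 20330 genes edgeR called 0, with 1699 at an unadjusted p under 0.05, limma-voom called 0 and DESeq2 called 60. For the members called between layers the interaction was -0.16 for Glra3 (95% interval -0.46 to 0.13, edgeR adjusted p = 0.782), -0.019 for Glrb (95% interval -0.25 to 0.22, edgeR adjusted p = 0.976) and -0.11 for Gphn (95% interval -0.30 to 0.070, edgeR adjusted p = 0.756).

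Other genes of the same synapses and of glycine handling were counted from lists. Of 12 inhibitory postsynapse genes 11 were found and tested. After cbx 6 were lower and 1 higher in the superficial layer, with a median of -0.18, and after saline 3 were lower and 1 higher, with a median of -0.13. Mdga1, which restrains neuroligins, was at -1.15 (SE 0.079) after cbx and -0.90 (SE 0.091) after saline, Dynll2, a dynein light chain that binds gephyrin, at -0.43 (SE 0.068) and -0.50 (SE 0.079), and Insyn1, a gephyrin partner, at -0.25 (SE 0.071) and -0.24 (SE 0.082). Iqsec3, an inhibitory synapse exchange factor, was higher, at 0.48 (SE 0.083) and 0.68 (SE 0.096). Of 6 genes around gephyrin's cofactor pathway 2 were higher after cbx, Mocs1 at 0.28 (SE 0.098) and Aox1 at 1.24 (SE 0.31), and 1 after saline, Aox1 at 2.15 (SE 0.38).

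Of 10 enzymes of glycine and serine metabolism, 5 were higher in the superficial layer after cbx and 3 after saline, 0 were lower, and the others did not pass. Their medians were 0.23 and 0.098, beside 0.018 and 0.042 over all genes, of which 18.1% were called higher after cbx and 9.67% after saline. Shmt1, which makes glycine from serine, was at 1.13 (SE 0.15) after cbx and 0.87 (SE 0.17) after saline. Phgdh and Psat1, of serine synthesis, were at 0.65 (SE 0.075) and 0.67 (SE 0.075) after cbx, and at 0.42 (SE 0.086) and 0.50 (SE 0.086) after saline. The meningeal genes were higher in superficial libraries, while called astrocyte genes went both ways, and their part was not tested.

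Among 10 other carriers of glycine and small neutral amino acids 9 were tested, of which 3 were higher and 5 lower in the superficial layer after cbx, and 4 higher and 3 lower after saline. Slc7a10, a carrier of glycine and D-serine, was at -0.83 (SE 0.063) after cbx and -0.63 (SE 0.073) after saline. Slc6a20a, a carrier of proline and glycine known from meninges and choroid plexus, averaged 44.4 ± 19.1 CPM in cbx superficial and 2.67 ± 0.51 CPM in cbx deep libraries (SD, n = 4 each), a log2 difference of 4.07 (SE 0.32). All 7 meningeal genes were higher in superficial libraries after either treatment. Of the NMDA receptor subunits that bind glycine, Grin1 was at -0.50 (SE 0.067) after cbx and -0.35 (SE 0.078) after saline, Grin3a at -0.39 (SE 0.086) and -0.35 (SE 0.099), and Grin3b was not called.

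Of 8 genes of vesicle loading, GABA handling and chloride balance, 4 were lower and 1 higher in the superficial layer after cbx, and 2 lower and 1 higher after saline. Gad1 was the higher one, at 0.85 (SE 0.062) after cbx and 0.96 (SE 0.072) after saline. Slc12a5, the chloride exporter that makes glycine and GABA inhibitory, was at -0.49 (SE 0.068) and -0.29 (SE 0.078). Slc6a11, a GABA transporter of astrocytes, was at -0.91 (SE 0.073) and -0.86 (SE 0.084).

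Between cbx and saline in the superficial layer, 3 of these 8 genes were lower and 0 higher, with a median of -0.20 beside 0.0094 over all genes. Of all 20330 tested genes, 335 were lower and 545 higher. The 3 lower genes of the list were Gad2 at -0.34 (SE 0.064, edgeR adjusted p = 0.00774), Slc6a11 at -0.32 (SE 0.078, edgeR adjusted p = 0.0275) and Abat, which breaks down GABA, at -0.27 (SE 0.075, edgeR adjusted p = 0.0498). Of the 11 postsynapse genes Nlgn2, a neuroligin of inhibitory synapses, was lower at -0.27 (SE 0.065, edgeR adjusted p = 0.0259) and Dynll1 higher at 0.58 (SE 0.11, edgeR adjusted p = 0.00817). Amt, of the glycine cleavage system, was higher at 0.33 (SE 0.091, edgeR adjusted p = 0.048), and the carrier Slc36a4 lower at -0.27 (SE 0.067, edgeR adjusted p = 0.0286). These calls of list genes are given for the edgeR fit to all 14 libraries only. Over all genes, calls in this comparison fell from 880 to as few as 140 with 1 library left out. Markers of other cells differed too. Of 7 microglial, 7 meningeal, 5 blood and 7 neuronal genes, 5, 3, 1 and 1 were higher in cbx superficial libraries and 0 were lower. Of the 8 colliculus and midbrain genes, 2 were higher there and 0 lower. Neuronal genes summed to 4114 to 4277 CPM after cbx and 4279 to 4515 CPM after saline, and blood genes to 238 to 388 and 149 to 230.5 CPM. Of 8 astrocyte genes 1 was lower, Slc1a3, with 449 to 523 CPM in cbx and 561 to 635 CPM in saline superficial libraries, and 0 were higher. The part of these cells in the differences was not tested. In the deep layer edgeR called 0 genes of these 6 lists, with Nlgn2, Slc6a11 and Abat at unadjusted p of 0.00561, 0.00269 and 0.0028. Among the cell markers, 1 of 7 oligodendrocyte lineage genes was lower in cbx deep than in saline deep libraries.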

How the data were processed

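The 14 libraries were grouped by the labels' tissue and treatment. The values are raw counts per gene as deposited by the authors, 1 table per library, not normalized. Per the submitters' processing notes the tools were featureCounts with Subread 2.0.1, SAMtools 1.14, FastQC 0.11.9 and STAR 2.7.9d, and 2 builds are named, mm10 and GRCm39, without a role for either. For annotation and strand setting: not given in the sources used here. If counting ignored strand, reads of overlapping genes cannot be told apart, which touches Slc6a9 most. Of 55359 gene IDs, 52083 had a symbol in the gene table used. The members and lists were chosen with earlier results of these data known. All 8 members are named, with up to 4 genes of each list by smallest p in a comparison. Insyn2a had no matching symbol. For each member called between layers, the 3 genes of most like pattern were sought, and 1 of them is not reported here.

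Genes were filtered with filterByExpr, leaving 20330, and tested with edgeR 4.0.16 in R 4.3.3: TMM scaling, a robust quasi-likelihood fit to 4 group means over all 14 libraries, and Benjamini-Hochberg adjustment at 0.05. SEs are the log2 difference divided by the square root of F, and 95% intervals use edgeR's degrees of freedom. CPM were computed with edgeR on a library size of the counts in tested genes times the TMM factor. Alternatives used DESeq2 1.42.0, limma 3.58.1, other filters, fewer groups, the replicate block, length and GC trends, and leaving out libraries. The merged exon length was added after the data were seen. The fits were tested on simulated data. Lengths and overlaps come from GENCODE M21 on GRCm38, and promoter windows from RefSeq on GRCm38.p6. Floors of 3 counts cover counting error only. No libraries of 1 group were alike within sampling noise: chi-square per gene was 7.35 to 48.6 in 18 pairs.

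The labels do not tie library numbers to animals. Over 15168 genes of at least 1 CPM, superficial and deep libraries of 1 number deviated together from their group means, with correlations of 0.182 to 0.394 in all 7 pairs, so numbers were taken to pair the layers. Over all 20330 genes the range was 0.00501 to 0.180. Sex-linked genes went with the number in some pools. Ddx3y had 0 counts only in both libraries of cbx number 4. Xist was at 0.572 and 1.94 CPM in both libraries of saline number 1 and higher in all others. In cbx number 2 Ddx3y was at 38.6 CPM in the superficial and 37.2 CPM in the deep library. It did not tell cbx numbers 1 and 3 apart, at 16.0 to 20.9 CPM. Same-numbered cbx and saline libraries correlated at -0.276 to -0.0167 in 6 pairs and were not paired. The replicate block is therefore given beside the layer results it changes. There the block was the pool, 1 term for each of the 7 pools. A separate fit of cbx against saline used the number as the block.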

Additional observations from a re-analysis of the deposited data

Results flagged for a closer look

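In 1 of 24 groups of 4 libraries checked, 1 library stood far from the others. Slc6a5, the transporter of glycine-releasing neurons, was at 0.654 CPM in cbx superficial replicate 2, against 0.273 to 0.305 CPM in the other 3 libraries of that group. The gap was 0.916 of the group's range. This is past the 95% critical value of Dixon's test for 4 values, which chance passes in about 1 in 20 groups, and the library had 23 counts.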

How the results depend on the processing

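Of the members' log2 differences under other settings, 629 kept their direction and side of the threshold, 21 passed it newly, none lost it and 22 turned sign. Glra3 was called under each setting after cbx (-1.17 to -0.85) and saline (-1.08 to -0.84), Glrb likewise (-0.54 to -0.44 and -0.59 to -0.41), and Gphn after cbx (-0.27 to -0.19). The members called between layers after saline were 4 in place of 2 with DESeq2, with only the groups compared and with length and GC trends removed, each adding Slc6a5 and Slc6a9, and 2 to 3 when 1 library was left out. After cbx they were 5 in place of 3 without the low-count filter, adding Glra1 and Slc6a9, and 3 to 5 when 1 library was left out, with 5 without cbx superficial replicate 3. With the replicate block, the pairing of layers, they were 5 after cbx and 3 after saline, adding Glra1 and Slc6a9 after cbx and Slc6a9 after saline. It changed no other call of a member. Over all genes the block raised calls too, from 6544 to 7602 after cbx and from 3739 to 4662 after saline. After saline all calls were 4182 with DESeq2, and 2170 higher and 2417 lower with only the groups compared. After cbx all calls did not rise without the low-count filter (3278 higher, 3119 lower) or without cbx superficial replicate 3 (3515 higher, 2743 lower). The cause of these changes was not tested.

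No sign change concerned a called value. Glrb was at -0.0030 between cbx and saline superficial libraries with a filter of 1 CPM. Without saline pool 1 and cbx pool 4, Glra2 was at -0.0063 between layers after saline and 5.58e-05 between treatments in the superficial layer, Slc6a5 at 0.026 between treatments in the deep layer, and Glrb at 0.00073 in the interaction. With length and GC trends removed, Glra2 was at -0.065 between layers after saline and -0.027 between treatments in the deep layer, Glrb at -0.064 between treatments in the deep layer and 0.093 in the interaction, and Glra3 at 0.19 in the interaction. With 1 library left out, the interaction was -0.11 to 2.13 for Glra4, -0.084 to 0.040 for Glrb and -0.029 to 0.16 for Slc6a9. Between treatments it then was -0.047 to 0.077 (superficial) and -0.0059 to 0.066 (deep) for Glrb, and -0.17 to 0.019 (superficial) for Slc6a9.

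The share of Glra2 differed between cbx and saline superficial libraries by -1.74 to 0.046 points when 1 library was left out. Over all genes, calls between layers were 3739 after saline (2133 to 4662 under other settings, 2685 to 3406 with 1 library left out) and 6544 after cbx (5382 to 7602, and 5391 to 6276). Between treatments they were 880 in the superficial layer (91 to 1585, and 140 to 907) and 373 in the deep layer (14 to 901, and 42 to 272), and in the interaction 0 (0 to 256, and 0 to 14). Glra4 and Slc6a5 had 0 to 30 counts per library, where counting error is large beside the values. Glra1 had 9 to 155 counts.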
